A study of Mus musculus with 60 samples.

Results

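The response of mouse cortical neurons to brain-derived neurotrophic factor (BDNF) at 3 days in vitro (DIV3) was measured in 6 RNA-seq libraries out of 48 short-read libraries, in a series of 60 samples. The 6 libraries are all those of the table that carry scrambled control (SC) siRNA at DIV3. Of these, 3 received BDNF and 3 did not, and each culture numbered 1, 2 or 3 gave 1 library of either kind. The series asked how paxillin, an adaptor protein of cell adhesions, affects splicing in neurons, with cultures collected at DIV3, DIV5 and DIV10. The labels give all cultures as wild-type cerebral cortex of E18 mouse embryos, whereas the paper's legend for these libraries names E15. In every culture, siRNA was given at 2 DIV, so the SC libraries are of siRNA-treated and not of untreated neurons. BDNF was added at 20 ng/ml on the same day, so the DIV3 libraries were collected about 1 day later. The libraries are bulk samples of whole cultures, in which fewer cells of a type and less RNA per cell cannot be told apart. The paper describes the cultures as independent. The p-values measure only the spread between the 15 DIV3 libraries of the fit, which include those labelled paxillin siRNA.

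BDNF is a secreted growth factor of the nervous system that binds the receptor tyrosine kinase TrkB, which is encoded by Ntrk2. The activated receptor recruits adaptor proteins such as Shc and Frs2, and these start the Ras-ERK, PI3K-Akt and phospholipase C gamma cascades. ERK and its downstream kinases activate the transcription factors CREB and SRF, which turn on immediate early genes such as Fos, Egr1 and Arc, and these are followed by feedback inhibitors of ERK and by secreted peptides. In cortical cultures BDNF is known to promote the growth of dendrites, the differentiation of interneurons and the maturation of synapses.

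Levels are in TPM, the transcripts of a gene per 1000000 transcripts, an abundance corrected for transcript length and scaled to the same total in each library, so that the depth behind a value is unknown. Between 20878 and 22038 genes had a value above 0 in the 6 libraries, and the 50 most abundant genes took 20.2% to 23.8% of the TPM. The mitochondrial genes took 0.850% to 1.65%. Neuron markers summed to 3788 to 4808 TPM without BDNF and to 3317 to 3963 TPM with it. Most of the sum without BDNF was Tubb3, which was lower with it, and the median log2 difference of the list was 0.26. Astrocyte markers summed to 850.5, 954 and 326 TPM in the SC libraries of cultures 1, 2 and 3 and to 887, 1005 and 326 TPM in their BDNF libraries, so culture 3 held less of this signal in both. Over the marker lists of 8 cell types, with 56 entries tested, 5 were higher with BDNF and 4 were lower. These shares were near those of all genes tested, which were 7.88% higher and 6.53% lower. No marker was at 0 in all 6 libraries, and among the markers under 1 TPM in all 6 were Pecam1, Flt1 and Cdh5 of endothelial cells, P2ry12 of microglia and Mag of oligodendrocytes.

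Values are given below in the order of cultures 1, 2 and 3. BDNF and SC libraries were compared as log2(TPM + 1) within each culture, so that the log2 difference of a gene is the mean of 3 differences, and the added 1 makes the change of a gene of low level look smaller than it is. The test was a limma fit of the 15 DIV3 libraries with the culture number as a block, and a gene is said to be higher, lower or changed where its Benjamini-Hochberg adjusted p was under 0.05. An exact permutation test of 3 pairs cannot reach that level, since its smallest 2-sided p is 0.25.

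With BDNF, 1123 of 14250 genes tested were higher (7.88%) and 930 were lower (6.53%), and the median log2 difference over all genes tested was -0.01. Rises reached further than falls. A log2 difference of at least 1 was found for 246 genes that rose, and of -1 or below for 69 genes that fell. For a bound of 2 these numbers were 50 and 2. Of the 2053 genes that changed, 2044 moved in the same direction in all 3 cultures, and for 1541 the 3 SC libraries did not overlap with the 3 BDNF libraries. The test favours genes whose 3 differences agree, so both counts follow in part from the selection and are no added support. The same counts over all genes tested are not given here. Without the culture block the fit called 545 genes, 395 of them higher, and without culture 1 it called 150. A fit of only the 6 SC siRNA libraries called 183 genes with the block and 104 without it.

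**Figure D1:**
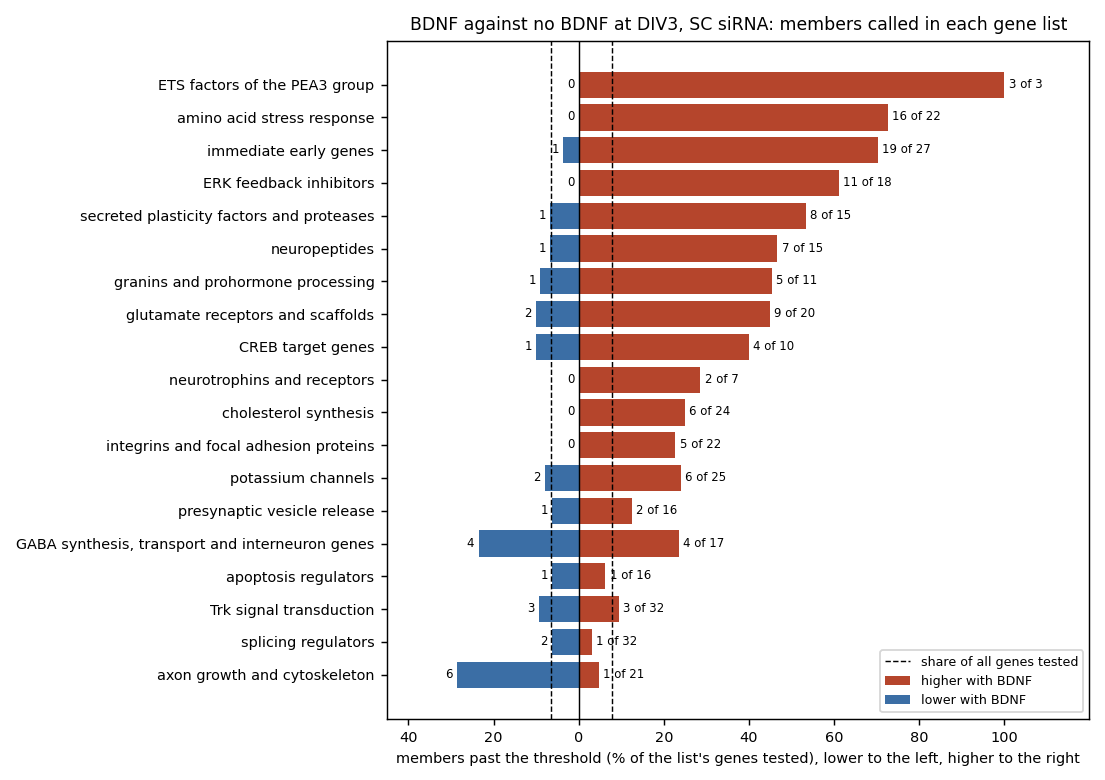
Share of the genes tested in each list that were higher (red, to the right) or lower (blue, to the left) with BDNF in SC siRNA cultures at DIV3, with the numbers printed beside the bars and dashed lines at the share of all 14250 genes tested (7.88% higher, 6.53% lower). The amino acid stress list (16 of 22), the immediate early genes (19 of 27) and the ERK feedback inhibitors (11 of 18) reached far past the dashed line, and the axon growth list had more lower (6) than higher members (1) of 21.

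The sequences before the starts of 6 genes that rose are printed because they hold a motif of CREB, SRF or ATF4, for which these genes were chosen. Being chosen in this way, the 6 genes do not stand for all genes that rose. Each is the 250 bases before a RefSeq start in GRCm38.p6, written 5′ to 3′ on the strand of the gene. Capitals mark the cAMP response element (CRE, TGACGTCA), its shorter core TGACG where no whole CRE is present, the CArG box of SRF, and the element of ATF4 and its C/EBP partners (CARE, TGATGNAA), each searched on both strands.
Egr2, + strand of chr10:67537619-67537868: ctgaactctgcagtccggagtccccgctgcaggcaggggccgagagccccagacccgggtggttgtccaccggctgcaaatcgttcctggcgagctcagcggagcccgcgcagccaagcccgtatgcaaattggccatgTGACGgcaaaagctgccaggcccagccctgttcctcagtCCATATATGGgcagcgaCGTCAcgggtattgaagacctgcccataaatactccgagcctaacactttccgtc
Ch25h, - strand of chr19:34475149-34475398: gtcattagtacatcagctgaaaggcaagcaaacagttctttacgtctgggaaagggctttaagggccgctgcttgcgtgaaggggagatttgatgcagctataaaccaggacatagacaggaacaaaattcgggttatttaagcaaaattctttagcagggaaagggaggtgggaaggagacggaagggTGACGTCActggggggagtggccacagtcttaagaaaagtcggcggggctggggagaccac
Scg2, - strand of chr1:79440027-79440276: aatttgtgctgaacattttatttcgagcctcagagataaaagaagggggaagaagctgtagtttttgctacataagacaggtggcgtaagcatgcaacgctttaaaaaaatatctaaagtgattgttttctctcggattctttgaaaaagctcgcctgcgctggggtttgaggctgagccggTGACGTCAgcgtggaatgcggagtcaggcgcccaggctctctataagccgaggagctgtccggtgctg
Pcsk1, + strand of chr13:75089607-75089856: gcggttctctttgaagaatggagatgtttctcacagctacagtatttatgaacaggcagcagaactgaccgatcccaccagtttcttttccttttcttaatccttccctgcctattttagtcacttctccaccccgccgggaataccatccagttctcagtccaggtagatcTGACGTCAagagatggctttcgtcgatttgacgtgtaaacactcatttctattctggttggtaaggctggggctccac
Sst, - strand of chr16:23890845-23891094: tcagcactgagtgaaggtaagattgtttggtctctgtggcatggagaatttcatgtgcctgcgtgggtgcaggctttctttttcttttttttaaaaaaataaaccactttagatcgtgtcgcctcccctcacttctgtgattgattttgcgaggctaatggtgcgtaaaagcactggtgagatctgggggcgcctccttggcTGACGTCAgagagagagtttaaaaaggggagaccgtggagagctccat
Chac1, + strand of chr2:119350992-119351241: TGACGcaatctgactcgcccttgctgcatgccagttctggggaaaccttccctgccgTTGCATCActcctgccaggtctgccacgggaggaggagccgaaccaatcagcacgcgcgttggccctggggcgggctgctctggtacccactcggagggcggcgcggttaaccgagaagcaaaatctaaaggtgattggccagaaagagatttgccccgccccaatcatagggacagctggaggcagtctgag
The CArG box of Egr2 lies 72 to 63 bases before the start, with a CRE core at 55 to 51 bases and another at 111 to 107. The CRE lies at 61 to 54 bases in Ch25h, at 68 to 61 in Scg2, at 78 to 71 in Pcsk1 and at 48 to 41 in Sst. The CARE of Chac1 lies at 193 to 186 bases, with a CRE core at 250 to 246. For Egr2, which has 5 listed starts, the window with the most motifs is shown.

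Windows of this kind were listed for 11256 of the 14250 genes tested. A CRE was found in 3.4% of the windows of genes that rose, in 1.21% of those of genes that fell, in 2.55% of the windows of all genes tested and in 1.55% of all windows of the table. The core, which every CRE also holds, was found in 27.9%, 19.3%, 25.7% and 17.8% of them. Of the 15 immediate early genes that rose and have a window, 12 held the core in at least 1 window, against 3340 of the 11256 tested genes with a window. Only 2 of these 15 genes held a whole CRE and 1 a CArG box, against 341 and 148 of the tested genes. Of 9 ERK feedback inhibitors that rose and have a window, 0 held a whole CRE, 2 the core and 1 a CArG box. A CArG box was found in 1.75% of the windows of genes that rose, against 1.11% of those tested and 1.47% of all. A CARE was found in 3 of the 16 windows of amino acid stress genes that rose (18.8%), against 1.99% of those tested and 3.45% of all. These are matches of letters, counted without a test.

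Among the ligands and receptors, Bdnf itself and the sorting receptor gene Sort1 were higher with BDNF, and no receptor kinase gene changed. Bdnf, whose RNA was measured apart from the added protein, was at 0.859, 0.667 and 3.31 TPM without BDNF and at 3.74, 2.48 and 9.74 TPM with it. It rose in every culture by a log2 difference of 1.24 ± 0.21 (SE), with a limma adjusted p = 0.00377, although the BDNF library of culture 2 stayed below the SC library of culture 3. Sort1, which encodes sortilin, a receptor that sorts proneurotrophins, was at 57.1, 57.4 and 51.6 TPM without BDNF and at 155, 113 and 62.03 TPM with it, a difference of 0.88 ± 0.23 (SE), with a limma adjusted p = 0.0267. Its rise was large in cultures 1 and 2 and small in culture 3, and it passed in 1 of the 6 fits with 1 library left out (highest limma adjusted p = 0.13). Ntrk2, the gene of the receptor TrkB, was at 30.6, 29.4 and 25.2 TPM without BDNF and at 41.95, 32.6 and 19.8 TPM with it. Its level with BDNF was above that without it in cultures 1 and 2 and below it in culture 3, and the difference of 0.09 ± 0.13 (SE) did not pass the test (adjusted p = 0.711, limma). Of the 12 genes of this list, 7 were tested and 2 were higher, with a list median of 0.21. The other 5, among them Ntf3, Ntf5 and Sorcs3, were below the limit of a mean of 1 TPM.

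The genes of the cascades below the receptor changed no less often than all genes tested. Of 32 adaptors and kinases, 3 were higher (9.4%) and 3 were lower (9.4%), against 7.88% and 6.53% of all genes tested. The list median was 0.03. Shc3, a neuronal adaptor of Trk receptors, was at 33.8, 35.9 and 27.1 TPM without BDNF and at 59.4, 52.8 and 62.7 TPM with it and rose by 0.84 ± 0.12 (SE), with a limma adjusted p = 0.00174. Rps6ka3, which encodes the ERK-activated kinase RSK2, and Braf, the kinase upstream of MEK, rose by 0.72 and 0.49. Sh2b2, an adaptor of receptor kinases, fell in every culture, from 27.6, 29.6 and 30.01 TPM to 18.4, 21.3 and 17.5 TPM, with non-overlapping groups. Mapk3 (-0.36), the gene of ERK1, and Rps6ka1 (-0.33), the gene of RSK1, were lower.

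The immediate early genes Egr2 and Arc had the largest rises of all named genes. Of the 27 tested, 19 were higher with BDNF, 1 was lower and 7 did not pass, and the list median was 0.99. Egr2 (at chr10:67534469-67542188 in GRCm38.p6), a zinc finger transcription factor of the early growth response family, was at 0.688, 0.911 and 2.09 TPM without BDNF and at 136, 31.2 and 102 TPM with it. Every BDNF library stood far above every SC library, by a log2 difference of 5.16 ± 0.37 (SE), with a limma adjusted p = 8.01e-05. Arc (chr15:74669081-74672570), whose product acts in the removal of AMPA receptors from synapses, was at 4.49, 4.17 and 6.58 TPM without BDNF and at 272, 80.9 and 208 TPM with it, a difference of 4.80 ± 0.29 (SE), with a limma adjusted p = 5.73e-05. Egr1, another zinc finger factor of the family, was at 39.6, 49.1 and 64.3 TPM without BDNF and at 1257, 503 and 1144 TPM with it, a difference of 4.14 ± 0.32 (SE), with a limma adjusted p = 8.89e-05. In all 3 of these genes the BDNF library of culture 2 was the lowest of the BDNF libraries. Egr4 was at 2.83, 3.34 and 2.57 TPM without BDNF and at 56.1, 17.9 and 81.1 TPM with it and rose by 3.51 ± 0.46 (SE), with a limma adjusted p = 0.00116.

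Fos, which encodes a subunit of the transcription factor AP-1, was at 6.03, 7.16 and 45.2 TPM without BDNF and at 56.1, 36.6 and 208 TPM with it. The rise within each culture was 3.02, 2.20 and 2.18, and the mean difference was 2.47 ± 0.21 (SE), with a limma adjusted p = 1.19e-04. The SC library of culture 3 was above the BDNF library of culture 2, so the Fos groups overlapped although every culture rose. The other AP-1 genes Fosb, Junb and Fosl2 rose by 1.76, 1.70 and 1.05, whereas Jun (0.17) did not pass the test. The remaining members that rose were Ier2 (1.63), Egr3 (1.38), Maff (1.33), Homer1 (1.11), Ier3 (1.06) and Nr4a1 (0.99), followed by Npas4 (0.68), Nr4a3 (0.64), Ier5 (0.64), Btg2 (0.60) and Klf4 (0.43). Npas4, a factor turned on by calcium entry, and the Nr4a orphan receptors had smaller differences than Egr1, Egr2, Egr3 and Egr4. Klf2, a Krüppel-like factor, was the only member to fall (-0.54), and Ptgs2 (0.67), Ccn1 (0.54), Atf3 (0.38), Klf10 (0.13), Srf (-0.02) and Nr4a2 (-0.40) did not pass. In the fit without the block 8 members were higher, and without culture 1 there were 9. The count was 11 without the SC or the BDNF library of culture 1 and 10 without the SC library of culture 3.

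**Figure D2:**
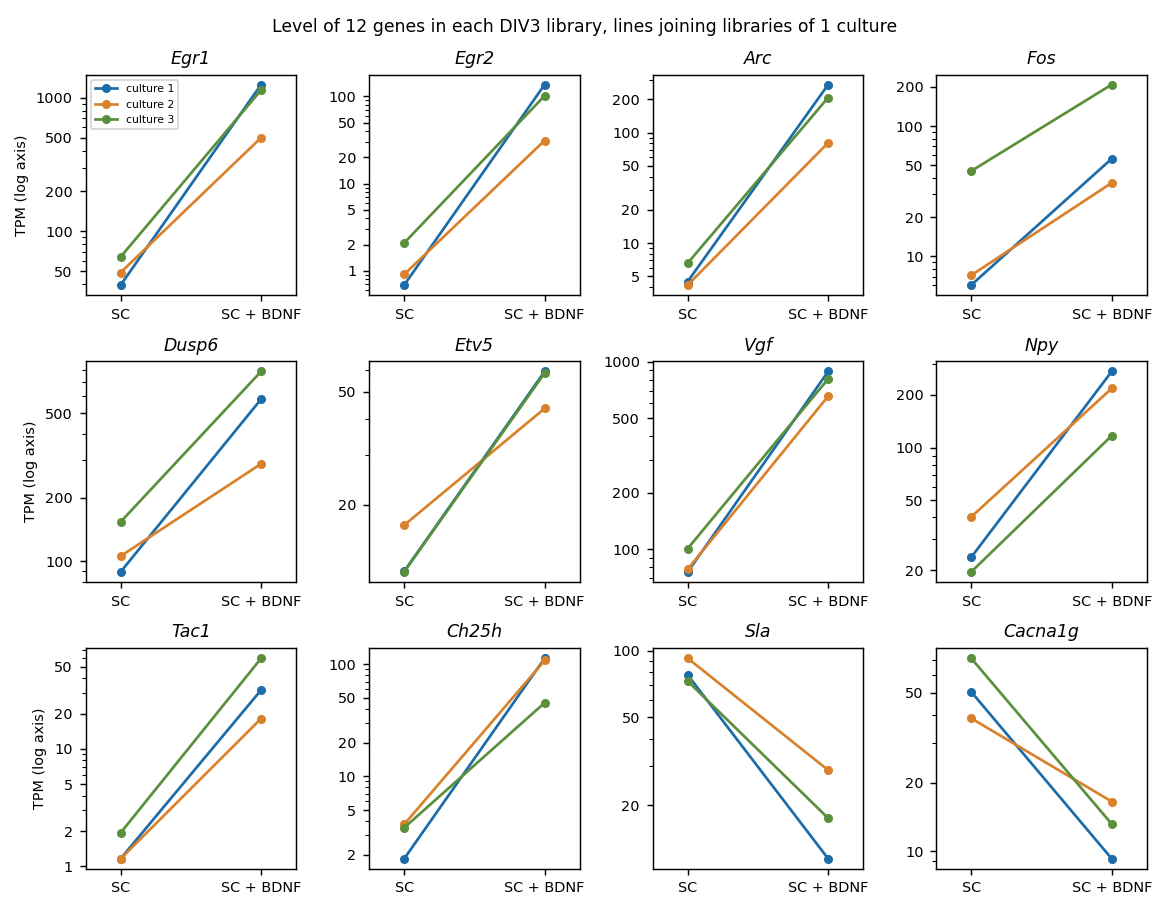
Level in TPM (log axis) of 12 genes in the SC siRNA libraries without and with BDNF at DIV3, with 1 line for each of cultures 1, 2 and 3. All lines of the first 10 genes go up and all lines of Sla and Cacna1g go down, and the line of culture 2 (orange) ends lowest for Egr1, Egr2, Arc, Fos, Dusp6, Etv5, Vgf and Tac1.

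Most of the negative regulators of ERK signalling were higher. Of 18 genes, 11 were higher and none was lower by the limma test, which called 20 of the 27 immediate early genes, and the list median was 0.76. Dusp6, the gene of a cytoplasmic phosphatase that acts on ERK, was at 89.1, 106 and 154 TPM without BDNF and at 583, 289 and 788 TPM with it, a difference of 2.16 ± 0.21 (SE), with a limma adjusted p = 2.57e-04. Dusp4 and Dusp5, nuclear phosphatases of the same family, rose by 2.04 ± 0.21 (SE) and 2.19 ± 0.24 (SE), and Dusp5 was at 0.7502, 0.632 and 1.001 TPM without BDNF and at 5.6005, 4.23 and 14.9 TPM with it. Spry4, a Sprouty protein that blocks Ras activation, was at 13.1, 16.1 and 14.01 TPM without BDNF and at 56.5, 37.9 and 58.9 TPM with it and rose by 1.74 ± 0.20 (SE), with a limma adjusted p = 5.26e-04. In all 4 genes the SC and BDNF groups were apart. Further members that rose were Spred3 (1.44), Dusp14 (1.31), Spry2 (1.19), Spred1 (1.02), Rasa1 (0.87), Dusp10 (0.64) and Spred2 (0.61). The members Dusp1 (0.16), Errfi1 (0.15), Dusp8 (0.06), Spry1 (0.06), Phlda1 (-0.04), Dusp2 (-0.14) and Dusp7 (-0.25) did not pass.

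The ETS factors of the PEA3 group, which are known targets of growth factor signalling through ERK, were all higher. Etv5 was at 11.6, 16.9 and 11.6 TPM without BDNF and at 59.1, 43.7 and 58.3 TPM with it, a difference of 1.93 ± 0.19 (SE), with a limma adjusted p = 2.50e-04, and the groups did not overlap. Etv4 was at 8.19, 9.95 and 6.33 TPM without BDNF and at 16.1, 23.2 and 18.9 TPM with it and rose by 1.16 ± 0.12 (SE), with a limma adjusted p = 3.48e-04. Etv1 rose by only 0.51 ± 0.14 (SE), with a limma adjusted p = 0.0392, from 13.2, 10.3 and 5.71 TPM to 15.8, 12.9 and 12.4 TPM, and its groups overlapped. Etv1 did not pass in the fit without the block, nor when any 1 of the 3 cultures was left out.

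Of 10 further CREB target genes, 4 were higher and 1 was lower, with a list median of 0.20. The clock gene Per1 was at 46.9, 45.9 and 104 TPM without BDNF and at 84.1, 75.6 and 133 TPM with it and rose by 0.63 ± 0.12 (SE), with a limma adjusted p = 0.00758. Crem, which encodes CREB relatives including a repressor, and Sik1, a kinase that restrains CREB coactivators, rose by 0.49 and 0.44, and Nr4a1, also an immediate early gene, by 0.99. Rgs2, a regulator of G protein signalling, fell, with a difference of -0.51 ± 0.11 (SE). In the fit without the block 0 CREB targets were higher by limma, and without culture 1 the count was 1. It was also 1 without the SC or the BDNF library of culture 1, and 2 without the SC library of culture 2 or 3.

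Neuropeptide genes were higher with BDNF more often than lower. Of 15 tested, 7 were higher, 1 was lower, and the list median was 0.74. The higher count was 4 without the block, without culture 1 and without either library of culture 1. Npy (chr6:49822710-49829507), which encodes neuropeptide Y of cortical interneurons, was at 23.8, 40.3 and 19.6 TPM without BDNF and at 271, 217 and 117 TPM with it. All BDNF libraries were above all SC libraries, by a difference of 2.79 ± 0.26 (SE), with a limma adjusted p = 2.28e-04. Tac1, the precursor of substance P, was at 1.16, 1.16 and 1.93 TPM without BDNF and at 31.8, 18.2 and 59.2 TPM with it, a difference of 3.81 ± 0.28 (SE), with a limma adjusted p = 8.01e-05. Crh, which encodes corticotropin-releasing hormone, was at 12.6, 7.41 and 4.76 TPM without BDNF and at 77.6, 39.3 and 38.6 TPM with it and rose by 2.52 ± 0.21 (SE), with a limma adjusted p = 1.16e-04, with its 3 cultures between 2.26 and 2.78. Adcyap1 (PACAP) and Nts (neurotensin) rose by 1.90 and 1.78. Trh fell (-0.69), and Penk (0.74), Pthlh (0.54), Vip (0.41), Pdyn (0.03), Cck (-0.03), Tac2 (-0.07) and Nmb (-0.40) did not pass.

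Sst and Cort, the somatostatin and cortistatin genes, rose mainly in cultures 1 and 2. Sst was at 108, 89.2 and 593 TPM without BDNF and at 1176, 919 and 665 TPM with it, so that the differences were 3.43 and 3.35 in cultures 1 and 2 and 0.17 in culture 3, where the level was high without BDNF. The mean was 2.32 ± 0.57 (SE), with a limma adjusted p = 0.0237. Cort was at 7.596, 3.37 and 16.2 TPM without BDNF and at 69.5, 46.2 and 26.95 TPM with it, with differences of 3.04, 3.43 and 0.70, and its SC library of culture 3 was again the highest of the SC libraries. Neither gene passed in the fit without the block or without culture 1 or 2.

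Other interneuron genes moved in both directions. Calb1, which encodes the calcium-binding protein calbindin, was at 1.52, 1.801 and 1.81 TPM without BDNF and at 17.9, 13.02 and 4.12 TPM with it and rose by 2.03 ± 0.49 (SE), with a limma adjusted p = 0.0223, and Gad2, one of the genes for GABA synthesis, rose by 0.47. The other synthesis gene Gad1 (0.24) and the vesicular GABA transporter Slc32a1 (0.07) did not pass. The transcription factor genes of developing interneurons Dlx6, Dlx5 and Maf were lower, with differences of -0.88, -0.59 and -0.60, as was the calretinin gene Calb2 (-0.60). Dlx6 was at 7.23, 5.18 and 6.21 TPM without BDNF and at 3.63, 3.21 and 2.01 TPM with it, with groups that did not overlap, and its span overlaps the antisense transcript Dlx6os1, whose reads may not be told apart. Over the 17 interneuron genes tested, 4 were higher, 4 were lower, and the median was -0.20. No member was lower by limma without the block or without culture 1, with 2 and 1 higher. With 1 library left out, there were 1 higher and 2 lower without the BDNF library of culture 1, 1 and 1 without its SC library, 2 and 4 without the BDNF library of culture 2, 1 and 3 without its SC library, and 3 and 2 without the SC library of culture 3. Calb1 passed in 2 of these 6 fits.

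Genes of the secretory granule, which stores and processes peptides, included 5 that rose and 1 that fell. Vgf (chr5:137025301-137033351), a granin-like gene known for its response to neurotrophins, was at 75.7, 78.2 and 101 TPM without BDNF and at 886, 654 and 809 TPM with it. The groups were far apart and the 3 cultures close to each other, with a difference of 3.19 ± 0.26 (SE), with a limma adjusted p = 1.19e-04. Scg2, which encodes secretogranin II, was at 219.9, 213 and 927 TPM without BDNF and at 2518, 1298 and 2699 TPM with it, a difference of 2.55 ± 0.37 (SE), with a limma adjusted p = 0.00199, with the highest SC level in culture 3. The prohormone convertase gene Pcsk1 was at 0.916, 0.566 and 1.75 TPM without BDNF and at 5.13, 2.903 and 8.76 TPM with it and rose by 1.61 ± 0.16 (SE), with a limma adjusted p = 2.57e-04. The related convertase gene Pcsk2 moved the other way, at 5.36, 4.27 and 6.99 TPM without BDNF and at 2.76, 2.71 and 1.18 TPM with it, a difference of -1.04 ± 0.23 (SE), with a limma adjusted p = 0.0156. Cpe and Pam, which finish the processing of peptides, rose by 1.00 and 0.63, whereas Scg3 (0.37), Chga (0.17), Chgb (0.05), Scg5 (-0.06) and Pcsk1n (-0.51) did not pass. The list held 11 genes tested, with a median of 0.37.

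Of 15 secreted plasticity factors and proteases, 8 were higher, 1 was lower, and the median was 0.74. Nptx2, a pentraxin that clusters AMPA receptors, was at 4.44, 4.46 and 8.59 TPM without BDNF and at 51.2, 14.8 and 64.1 TPM with it, a difference of 2.52 ± 0.47 (SE), with a limma adjusted p = 0.00656. Nrn1, which encodes neuritin, a membrane-anchored promoter of neurite growth, was at 13.7, 22.2 and 22.8 TPM without BDNF and at 169.8, 37.4 and 65.2 TPM with it and rose by 1.91 ± 0.43 (SE), with a limma adjusted p = 0.0158, although culture 1 (3.54) rose far more than culture 2 (0.73). Its span overlaps the gene model Gm30177. Stc1 and Gdf10, a glycoprotein hormone and a relative of the bone morphogenetic proteins, rose by 1.67 ± 0.27 (SE) and 1.54 ± 0.25 (SE). Further members that rose were Nptx1 (1.47), Serpini1 (1.37), Igf1 (1.297) and Plat (0.74), of which Plat encodes tissue plasminogen activator and Serpini1 its neuronal inhibitor neuroserpin. Without culture 1 the list had 1 higher member, against 7 without the culture block.

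The amino acid stress response, a set of ATF4 targets for amino acid uptake and synthesis, had 16 higher members of 22 and no lower ones, with a median of 0.96. Slc7a3, a transporter of arginine and lysine, was at 1.04, 1.59 and 15.04 TPM without BDNF and at 31.8, 60.3 and 20.4 TPM with it. Its level rose strongly in cultures 1 and 2 and little in culture 3, with a mean difference of 3.00 ± 0.59 (SE), with a limma adjusted p = 0.00865. Chac1, which degrades glutathione, was at 11.9, 11.01 and 54.96 TPM without BDNF and at 85.4, 70.8 and 106 TPM with it, a difference of 2.09 ± 0.29 (SE), with a limma adjusted p = 0.00167. Stc2 was at 4.05, 4.36 and 31.9 TPM without BDNF and at 43.6, 42.9 and 41.98 TPM with it, where the BDNF levels of the cultures were alike and the SC level of culture 3 was high. The summed level of the list showed the same pattern, with 1547, 1556 and 2742 TPM without BDNF and 2945, 2866 and 3507 TPM with it. Transporters Slc7a5 (1.52), Slc7a1 (1.42), Slc3a2 (1.01) and Slc7a11 (0.49), enzymes Asns (1.40), Psph (1.10), Mthfd2 (1.07), Psat1 (0.98) and Shmt2 (0.82) and the regulators Sesn2 (1.10), Trib3 (0.94), Ddit3 (0.85) and Atf4 (0.49) were higher too. In the fit without the block 6 members passed, and without culture 1 none did by the limma test, although 17 of 22 passed without culture 3. Without the BDNF or the SC library of culture 1 there were 9, and without the SC library of culture 2 there were 10.

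Cholesterol synthesis genes moved less. Of 24 tested, 6 were higher and none was lower by the limma test, and the median was 0.44. Hsd17b7, an enzyme of the later steps, was at 35.9, 33.02 and 39.03 TPM without BDNF and at 77.1, 59.2 and 56.4 TPM with it, a difference of 0.81 ± 0.18 (SE), with a limma adjusted p = 0.0167. Other enzymes of the pathway rose as well, with Sc5d (0.76), Msmo1 (0.69), Idi1 (0.59) and Pmvk (0.47). Leaving out culture 3 gave 13 higher members, and leaving out the block gave 1. The count was 0 by limma without culture 1 or either of its libraries, 2 without the SC library of culture 2 and 14 without the BDNF library of culture 3. Hsd17b7 passed in 2 of the 6 fits with 1 library left out. Of 16 apoptosis regulators, the cell death genes Hrk (0.69) and Bmf (-0.55) were the only members to change, in opposite directions, and Bcl2 (0.19), Mcl1 (0.30) and Bax (-0.05) did not pass.

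Of 20 glutamate receptor and scaffold genes, 9 were higher and 2 lower, with a median of 0.53. Grin2a, the NMDA receptor subunit that increases as neurons mature, was at 1.84, 1.43 and 1.51 TPM without BDNF and at 8.49, 4.24 and 4.39 TPM with it, a difference of 1.32 ± 0.17 (SE), with a limma adjusted p = 0.00121. The AMPA receptor subunit gene Gria3 was at 3.57, 4.13 and 2.79 TPM without BDNF and at 14.5, 9.85 and 5.58 TPM with it and rose by 1.21 ± 0.19 (SE), with a limma adjusted p = 0.00246. Grm5, a metabotropic receptor, and Homer1, which binds it, rose by 1.04 ± 0.14 (SE) and 1.11 ± 0.18 (SE). Gria2 (1.00), Grin3a (0.94), Dlg4 (0.77), Homer2 (0.57) and Grin2b (0.47) rose too, whereas the scaffold and kinase genes Shank2 (-0.52) and Camk2b (-0.32) fell and Gria1 (0.69) and Grin1 (0.64) did not pass. The counts were 6 higher and 0 lower by limma without the block, 1 and 0 without culture 1, and between 6 higher (without either library of culture 1) and 13 higher (without the BDNF library of culture 3) with 1 library left out. In the 6 SC siRNA libraries without a block no member passed.

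Presynaptic genes mostly did not pass, with 2 higher and 1 lower of 16 and a median of 0.03. The members that rose were the vesicular glutamate transporters. Slc17a6 was at 14.7, 14.1 and 15.6 TPM without BDNF and at 45.9, 30.2 and 26.2 TPM with it, a difference of 1.11 ± 0.14 (SE), with a limma adjusted p = 0.00114. Slc17a7 was at 115, 112 and 53.3 TPM without BDNF and at 339.8, 239 and 59.5 TPM with it, a difference of 0.93 ± 0.26 (SE), with a limma adjusted p = 0.0382, with a small rise in culture 3 and overlapping groups. It passed in 1 of the 6 fits with 1 library left out (highest limma adjusted p = 0.181). Syn2, which encodes a synapsin of vesicles, fell (-0.30) and also passed in 1 of those 6 fits. The list had 1 higher member without the block and 5 without the BDNF library of culture 3. Snap25, the gene of a SNARE protein whose exon choice the series studied, was at 26.4, 33.9 and 27.8 TPM without BDNF and at 30.1, 34.4 and 41.6 TPM with it, a difference of 0.26 ± 0.14 (SE) that did not pass the test (adjusted p = 0.233, limma).

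Of 25 potassium channel genes, 6 were higher and 2 lower, with a median of 0.27. Kcna1, a delayed rectifier of axons, was at 10.1, 23.8 and 61.4 TPM without BDNF and at 129, 92.2 and 175 TPM with it, a difference of 2.31 ± 0.40 (SE), with a limma adjusted p = 0.00443. Kcna4, which encodes an A-type channel, was at 5.602, 5.11 and 4.78 TPM without BDNF and at 16.03, 13.7 and 15.3 TPM with it, close to alike in the 3 cultures, with a mean difference of 1.38 ± 0.17 (SE), with a limma adjusted p = 9.12e-04. Kcnv1 (1.08), Kcnj4 (0.97), Kcnk1 (0.86) and Kcnma1 (0.56) rose as well. Kcnh1, a channel of the ether-a-go-go family, fell from 1.71, 0.904 and 2.25 TPM to 0.194, 0.1900 and 0.263 TPM, and Kcnq3, a subunit of the M channel, fell too (-0.82). The higher count was 2 without the block and 1 without culture 1, and it ran from 3 without the SC library of culture 1 to 13 without the BDNF library of culture 3.

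Genes of the growing axon and its cytoskeleton were lower more often than higher, with 6 lower and 1 higher of 21 and a median of -0.22. Their summed level was 57389.6 to 61664 TPM without BDNF and 43863 to 47492 TPM with it, and these ranges did not overlap. Such a sum follows the members of highest level, and 14 of the 21 did not pass, so it does not show a fall of most members. Tubb3, the neuronal beta-tubulin gene, was at 2775, 2934 and 2095 TPM without BDNF and at 1449.7, 1604 and 1561 TPM with it, a difference of -0.74 ± 0.15 (SE), with a limma adjusted p = 0.0107. Stmn1, which encodes a protein that takes microtubules apart, was at 4666, 5049.5 and 3965 TPM without BDNF and at 2504, 2881 and 2864 TPM with it and fell, with a difference of -0.73 ± 0.14 (SE), with a limma adjusted p = 0.00923. Mapt, the gene of the axonal protein tau, was at 334, 365 and 367 TPM without BDNF and at 209, 234 and 270.1 TPM with it and fell, with a difference of -0.58 ± 0.11 (SE), with a limma adjusted p = 0.00657. Map2, the dendritic counterpart of tau, moved the other way, at 153, 147 and 126 TPM without BDNF and at 265, 200.04 and 279 TPM with it, a difference of 0.79 ± 0.14 (SE), with a limma adjusted p = 0.00551. Crmp1 (-0.57), Dpysl3 (-0.49) and Dpysl2 (-0.43), of the collapsin response mediator family, also fell, and Gap43 (-0.14), Dcx (0.01), Stmn2 (-0.28), Map1b (-0.22) and Tuba1a (-0.36) did not pass. In the fit without the block 3 members were lower, and without culture 1 or 2 none was by the limma test. There were 2 without the SC or the BDNF library of culture 1.

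Of 32 splicing regulators, 1 was higher (3.1%) and 2 were lower (6.25%), against 7.88% and 6.53% of all genes tested. Their median was 0.02. Rbfox3, whose product is the neuronal marker NeuN, was at 6.73, 6.68 and 7.01 TPM without BDNF and at 3.73, 4.58 and 3.79 TPM with it, a difference of -0.64 ± 0.10 (SE), with a limma adjusted p = 0.00325. Rbm24 was lower by a difference of -0.38 ± 0.11 (SE) and Mbnl1 higher by 0.45 ± 0.12 (SE), and neither passed when any 1 of the 3 cultures was left out. Ptbp1 (0.01), Ptbp2 (0.02) and Srrm4 (-0.21), regulators of neuronal exons, did not pass. The values are by gene, so the use of exons was not analysed here.

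Of 22 integrin and focal adhesion genes, 5 were higher and none was lower by the limma test, with a median of -0.02. Vcl, which encodes vinculin, a link from integrins to actin, was at 6.004, 4.48 and 9.63 TPM without BDNF and at 20.2, 12.6 and 18.8 TPM with it, a difference of 1.27 ± 0.13 (SE), with a limma adjusted p = 3.50e-04, and its span overlaps that of Ap3m1. The integrin genes Itga6 (0.89), Itgav (0.58) and Itgb1 (0.50) and the adaptor gene Lims1 (0.51) rose too, of which Itgav and Lims1 each passed in 1 of the 6 fits with 1 library left out. The higher count was 2 without the block, 1 without culture 1, and 2 without the BDNF library of culture 1 or the SC library of any culture. Without the BDNF library of culture 3, 2 members were lower. Pxn, the gene of paxillin, was at 9.16, 9.65 and 11.7 TPM without BDNF and at 8.05, 12.3 and 7.98 TPM with it, and the difference of -0.12 ± 0.14 (SE) did not pass the test (adjusted p = 0.612, limma).

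Of the 8 largest rises among genes with non-overlapping groups and one direction in all cultures, Ch25h, Crhbp, Peg10 and Nmbr were outside these lists. Ch25h (chr19:34473783-34475148), which encodes cholesterol 25-hydroxylase, was at 1.84, 3.73 and 3.48 TPM without BDNF and at 113, 108 and 45.3 TPM with it, a difference of 4.41 ± 0.31 (SE), with a limma adjusted p = 8.01e-05. Crhbp, the binding protein of corticotropin-releasing hormone, was at 0.145, 0.108 and 0.0392 TPM without BDNF and at 36.2, 19.4 and 8.19 TPM with it. Its level was under 1 TPM in every SC library, and it rose in every culture, by a mean difference of 4.12 ± 0.32 (SE), with a limma adjusted p = 9.55e-05. Peg10, an imprinted gene derived from a retrotransposon, was at 60.2, 38.02 and 47.8 TPM without BDNF and at 1077, 273 and 1048 TPM with it, a difference of 3.79 ± 0.30 (SE), with a limma adjusted p = 1.04e-04, with the smallest rise in culture 2. Nmbr, the receptor of neuromedin B, was at 0.369, 0.341 and 0.218 TPM without BDNF and at 16.02, 10.7 and 16.8 TPM with it, a difference of 3.54 ± 0.53 (SE), with a limma adjusted p = 0.00215.

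The 8 largest falls chosen in the same way were those of Mafa, Sla, Cacna1g, Ackr1, Cacna1i, Bmp3, Cav1 and Rpph1. Non-overlapping groups were a condition of this choice, which also left out gene models without a given name. Mafa, a transcription factor of the Maf family, was at 47.7, 30.003 and 9.27 TPM without BDNF and at 1.56, 2.11 and 3.12 TPM with it. Its SC levels ranged more widely than its BDNF levels, with a difference of -2.96 ± 0.59 (SE), with a limma adjusted p = 0.0093. Sla (chr15:66780819-66831829), which encodes the Src-like adaptor SLAP, was at 77.8, 92.6 and 72.9 TPM without BDNF and at 11.5, 28.8 and 17.5 TPM with it and fell, with a difference of -2.10 ± 0.23 (SE), with a limma adjusted p = 4.18e-04. Cacna1g and Cacna1i, which encode T-type calcium channels, fell as well. Cacna1g was at 50.5, 38.6 and 71.1 TPM without BDNF and at 9.24, 16.5 and 13.2 TPM with it, a difference of -1.95 ± 0.19 (SE), with a limma adjusted p = 2.50e-04. Cacna1i was at 21.5, 16.01 and 28.7 TPM without BDNF and at 8.41, 7.11 and 3.18 TPM with it, a difference of -1.72 ± 0.27 (SE), with a limma adjusted p = 0.00257. Bmp3, a member of the bone morphogenetic protein family, was at 46.4, 37.5 and 53.2 TPM without BDNF and at 12.1, 14.3 and 14.6 TPM with it, a difference of -1.66 ± 0.16 (SE), with a limma adjusted p = 2.48e-04. Cav1, which encodes caveolin, and Rpph1, the RNA of RNase P, fell by 1.65 ± 0.23 (SE) and 1.64 ± 0.48 (SE) on the log2 scale. Rpph1 had a limma adjusted p = 0.0448 and passed in 1 of the 6 fits with 1 library left out, with values from -2.03 to -0.95. Ackr1, an atypical chemokine receptor, had a difference of -1.75 ± 0.32 (SE), and its span overlaps that of Cadm3, a gene of high level.

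Some changed markers of other cells are given here beside these groups. Acta2 of mural cells was at 18.7, 3.16 and 26.4 TPM without BDNF and at 6.31, 1.14 and 7.3001 TPM with it, a difference of -1.37 ± 0.21 (SE), and C1qb of microglia was at 14.5, 10.4 and 13.1 TPM without BDNF and at 10.9, 7.35 and 5.31 TPM with it, a difference of -0.67 ± 0.18 (SE). Microglia markers summed to 38.02 to 56.9 TPM without BDNF and 21.8 to 41.7 TPM with it, with 1 lower of 7, and endothelial and mural markers to 14.1 to 57.6 TPM and 13.1 to 29.1 TPM, with 1 lower of 5. Dividing progenitor markers had no member past the limma test, at 534 to 638 TPM and 509 to 593 TPM. Oligodendrocyte markers summed to 913 to 1769.7 TPM and 751 to 1511 TPM, with 1 higher of 9, which was Mbp (1.05). Astrocyte markers had 2 higher of 9, Slc1a2 (0.81) and Aqp4 (0.34), and of the 8 neuron markers Map2 and Nefl (0.59) were higher and Tubb3 and Rbfox3 were lower. C1qb, Mbp, Aqp4 and Nefl each passed in 1 of the 6 fits with 1 library left out. Meningeal and red blood cell markers had no changed member of 5 and 4 by the same test. The part of these cells in the results above was not tested.

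The size of the differences varied between the 3 cultures. Each culture gave only 1 library of either kind, so its response cannot be told apart from variation between single libraries. Culture 1 had the largest rises, with a median log2 difference of 0.73 over the genes that rose and -0.58 over those that fell. These medians were 0.62 and -0.35 in culture 2 and 0.56 and -0.58 in culture 3. The smallest rise of the 3 was found in culture 1 for 125 genes, in culture 2 for 446 and in culture 3 for 552. Egr2, Arc, Egr1, Egr4, Nr4a1, Dusp4, Dusp5, Dusp6, Spry4 and Etv5 were among the 446, and Sst, Cort, Slc7a3, Stc2, Chac1 and Scg2 among the 552. The library names carry a running number, which is 66, 67, 75 and 76 for cultures 1 and 2 and 3 and 8 for culture 3, so culture 3 and this number series cannot be told apart. Within cultures 1 and 2, 2574 genes passed the test, 1697 of them higher.

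**Figure D3:**
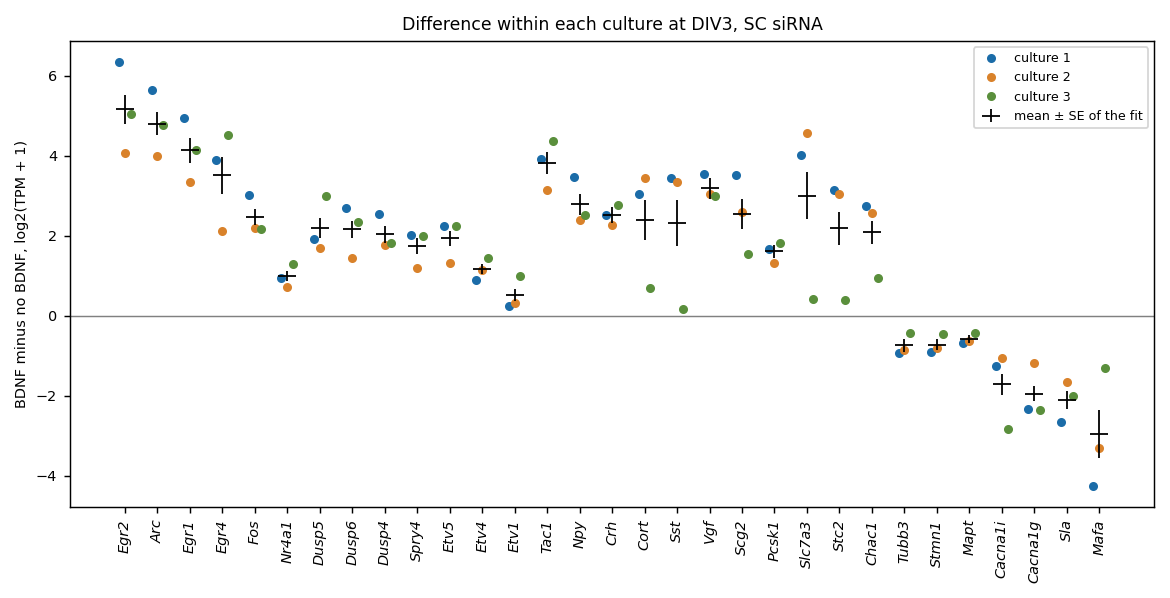
Difference between the BDNF and the SC library of each culture (colored points, log2(TPM + 1)) for 31 named genes at DIV3, with the mean and the SE of the fit in black. Culture 2 (orange) is the lowest point for Egr2, Arc and Egr1, whereas culture 3 (green) is close to 0 for Sst (0.17), Slc7a3 (0.42) and Stc2 (0.39).

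A small set of genes was called under every setting. In the fit described above and in all 18 other fits tried, 45 genes were higher and 4 were lower. Besides Egr2, Arc, Egr1, Egr4, Ch25h, Crhbp, Tac1, Peg10, Dusp4 and Cacna1g, which are named above, the 49 include genes picked here after their values were seen. These are Cpne7 (3.42), which encodes a calcium-dependent membrane-binding protein, Cyp26b1 (2.74), which degrades retinoic acid, and Nab2 (2.39), a corepressor of the Egr factors. Htr1b (2.24), a serotonin receptor, was also among them. With each of the 6 libraries left out in turn, 390 genes stayed higher and 219 stayed lower in all 6 fits.

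The same treatment of cultures labelled paxillin siRNA at DIV3 was compared to see whether the siRNA alters the response. Of 14250 genes, 1083 were higher (7.6%) and 1154 were lower (8.1%) with BDNF in these cultures, which comprised 5 libraries without and 4 with BDNF and share no library with the SC comparison. They carry culture numbers 1, 2, 3, 10 and 11, of which 1, 2 and 3 are those of the SC cultures. Both comparisons come from the same fit of the 15 DIV3 libraries. They share its estimate of the spread and its culture terms, so their overlap is not an independent replication. In the SC comparison 2053 genes changed, in this one 2237 did, and 1128 changed in both, which is 54.9% of the former and 50.4% of the latter. All but 1 of the 1128 had the same sign. The difference between both responses passed the limma test for 0 genes, with 1440 at an unadjusted p under 0.05 and a lowest adjusted p of 0.373. Pxn RNA, the target of the siRNA, had levels (lowest, median, highest) of 7.79, 8.38 and 11.4 TPM in libraries labelled paxillin siRNA and 9.16, 9.65 and 11.7 TPM in the SC libraries, and with BDNF 10.01, 10.2 and 11.8 TPM and 7.98, 8.05 and 12.3 TPM. These ranges overlap, so the labels give the groups here and the RNA does not separate them.

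Egr2 rose by 5.16 ± 0.37 (SE) with SC siRNA and by 4.80 ± 0.31 with paxillin siRNA, and Arc by 4.80 ± 0.29 (SE) and 4.99 ± 0.25. Npy rose by 2.79 ± 0.26 (SE) and 3.01 ± 0.22, Vgf by 3.19 ± 0.26 (SE) and 3.41 ± 0.22, and Dusp6 by 2.16 ± 0.21 (SE) and 2.35 ± 0.18. Sla fell with both, at -2.10 ± 0.23 (SE) and -1.84 ± 0.19. Most of the 90 named genes were chosen for a change with SC siRNA, which is itself a part of the difference between the labels. Such a choice favours larger changes with SC siRNA than with paxillin siRNA. Their counts therefore cannot be compared with that of all 14250 genes tested, of which 1440 had an unadjusted p under 0.05 (limma). Of the 90 named genes, 19 had an unadjusted p under 0.05 for the difference between the labels and 6 had one under 0.01. The 6 were Etv4, at 1.16 ± 0.12 (SE) and 1.75 ± 0.10 (unadjusted p = 0.0035, limma), Kcnv1, at 1.08 ± 0.16 (SE) and 0.36 ± 0.14 (unadjusted p = 0.00621, limma), Homer1, at 1.11 ± 0.18 (SE) and 0.34 ± 0.15 (unadjusted p = 0.00678, limma), Ntrk2, at 0.09 ± 0.13 (SE) and -0.48 ± 0.11 (unadjusted p = 0.00839, limma), Map2, at 0.79 ± 0.14 (SE) and 0.19 ± 0.12 (unadjusted p = 0.00849, limma) and Grm5, at 1.04 ± 0.14 (SE) and 0.47 ± 0.12 (unadjusted p = 0.00983, limma). Ntrk2 was lower with BDNF under paxillin siRNA (limma adjusted p = 0.0171) and did not pass under SC siRNA. The values lay furthest apart for Rpph1, at -1.64 ± 0.48 (SE) and 0.29 ± 0.40 (unadjusted p = 0.011, limma) and Ackr1, at -1.75 ± 0.32 (SE) and -0.48 ± 0.27 (unadjusted p = 0.0111, limma). None of these passed after adjustment over all genes. By list, the immediate early genes had 13 higher members with paxillin siRNA against 19 with SC siRNA, the ERK feedback inhibitors 10 against 11, the amino acid stress genes 17 against 16, and the axon growth genes 11 lower members against 6. Since no gene passed the test of the difference, these counts do not show that the lists responded differently.

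**Figure D4:**
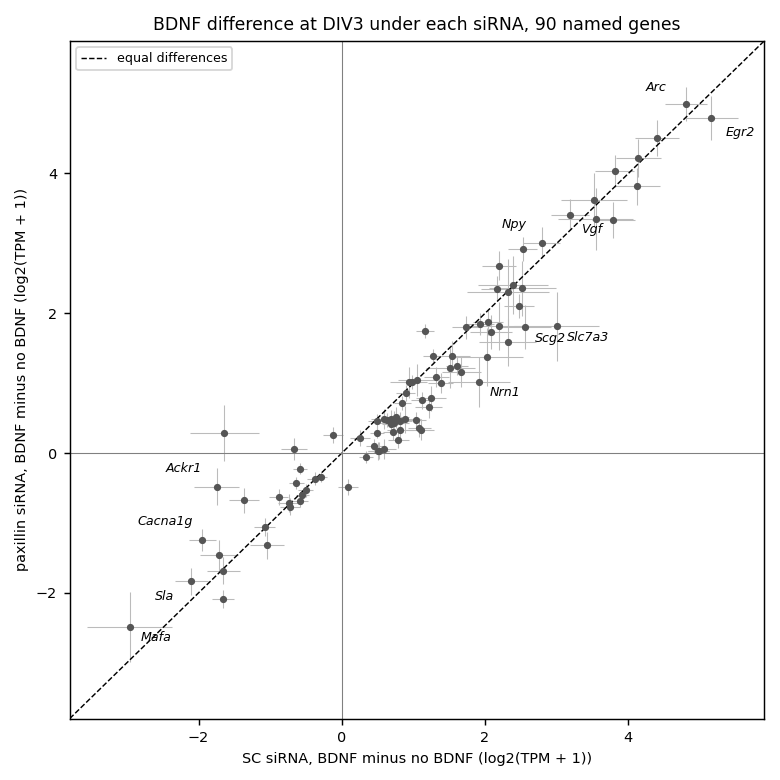
BDNF difference at DIV3 in log2(TPM + 1) with SC siRNA (horizontal axis) and with paxillin siRNA (vertical axis) for the 90 named genes, with SE bars and a dashed line of equal differences. Egr2 (5.16 and 4.80) and Vgf (3.19 and 3.41) lie near the line, and Ackr1 (-1.75 and -0.48) lies off it.

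The response at DIV3 was then set beside that of SC siRNA cultures at DIV5 and DIV10, in 1 fit of all 48 libraries without a block. BDNF was added at 2 DIV in all of them according to the labels, so the day and the time since the addition cannot be told apart. In this fit 172 genes changed at DIV3, 7 at DIV5 and 0 at DIV10 by limma. The groups behind these counts were not matched alike. At DIV10, the SC and BDNF libraries did not come from the same set of culture numbers. At DIV5, part of the cultures had SC and BDNF libraries from different series of library numbers. The counts therefore do not compare the days alone, and a fading of the response with time cannot be read from them. The response at DIV3 differed from that at DIV5 for 14 genes, with 1236 at an unadjusted p under 0.05, and from that at DIV10 for 16 genes, with 448 at an unadjusted p under 0.05, and in this fit the difference was larger at DIV3 in all of these genes. With the culture number by day as a replicate block, 1249 genes differed from DIV5, of which 787 had the larger and 462 the smaller difference at DIV3, and 148 differed from DIV10, with 122 and 26, so that one direction is not kept under the block.

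Egr2, Arc, Egr1 and Peg10 differed from both later days. Egr2 levels (lowest, median, highest) were 1.28, 4.55 and 5.65 TPM without and 2.53, 3.46 and 5.099 TPM with BDNF at DIV5, so its difference was -0.03 there and -0.53 at DIV10. Arc was at 7.03, 13.8 and 16.4 TPM without and 16.6, 18.02 and 19.9 TPM with BDNF at DIV5, and its SC level was higher at DIV10, at 37.8, 51.2 and 167 TPM. Dusp6, of the ERK feedback inhibitors, had a difference of 0.59 at DIV5 and -0.04 at DIV10, and neither differed from DIV3 past the test (limma adjusted p = 0.499 and 0.642).

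Npy, Sst, Tac1 and Crhbp, picked after their values were seen, had a positive difference on each of the 3 days. Npy was at 13.8, 22.7 and 28.8 TPM without and 69.8, 277 and 643 TPM with BDNF at DIV5, a difference of 3.39 against 2.79 at DIV3 and 2.30 at DIV10. Sst had 2.32 at DIV3, 2.73 at DIV5 and 2.35 at DIV10, Tac1 had 3.81, 2.52 and 2.55, and Crhbp had 4.12, 3.14 and 2.47. For none of these 4 genes did the difference between days pass the limma test, and none of them changed at DIV10 in this fit, where the ranges with and without BDNF overlapped for each. In this fit Npy did not pass at DIV3 or DIV5 (limma adjusted p = 0.117 and 0.0921), whereas Crhbp passed on both days. Vgf had 3.19 at DIV3, 2.94 at DIV5 and 0.35 at DIV10. It did not pass on any of these days in this fit, with a limma adjusted p = 0.093 at DIV3 and 0.199 at DIV5. Its difference between DIV3 and DIV10 did not pass either, so a loss of its response cannot be read from these values.

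**Figure D5:**
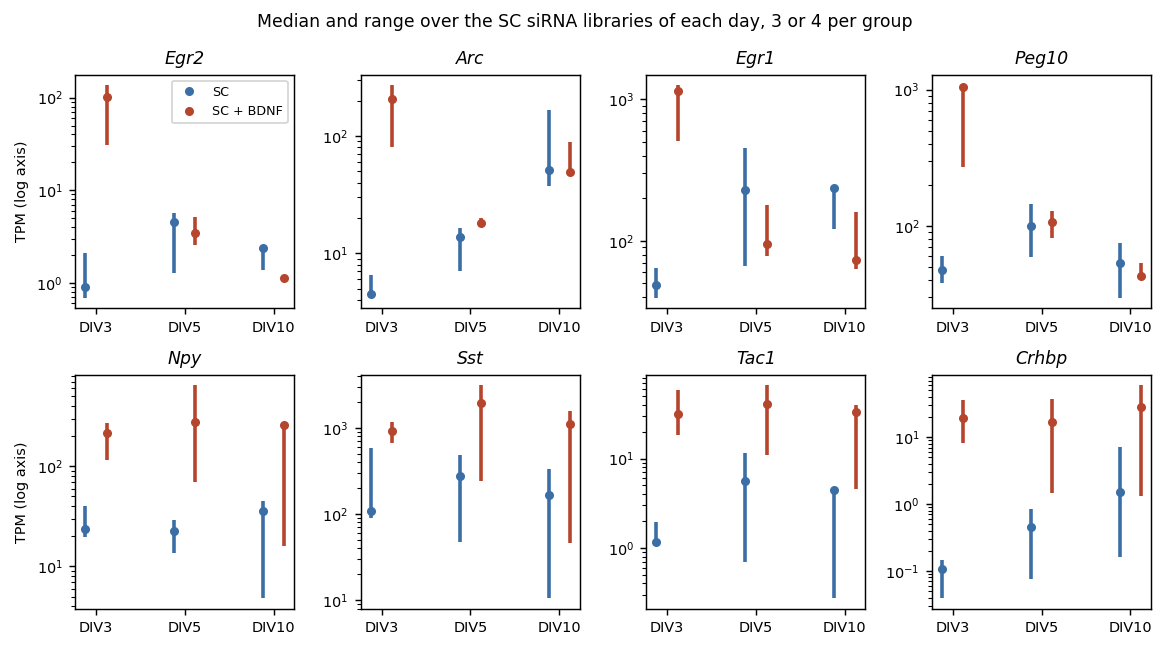
Median (point) and range (line) of the level in TPM (log axis) over SC siRNA libraries without (blue) and with BDNF (red) at DIV3, DIV5 and DIV10, with 3, 4 and 3 libraries per group. BDNF libraries of Egr2, Arc, Egr1 and Peg10 stand apart from the SC libraries at DIV3 and overlap them or lie below them at DIV10, whereas the medians of Npy, Sst, Tac1 and Crhbp are higher with BDNF on each day.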

How the data were processed

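RNA of 48 libraries of mouse cortical cultures and E15 tissue was measured by short-read RNA-seq, of which the 15 DIV3 libraries entered the fit. The authors aligned paired-end reads to GRCm38.p6 with STAR 2.7.10, estimated abundance per gene with RSEM 1.3.3, and deposited TPM for 39756 genes without pooling of replicates. The tools and their versions are those of the submitters' processing notes. Strand was not given in the sources used here, and 7 of the 90 named genes overlap another expressed gene. Hippocampus counts of the series were not used here.

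TPM were compared as log2(TPM + 1) with limma 3.58.1 (lmFit, eBayes with a trend) in R 4.3.3, keeping the 14250 genes whose mean over the 48 libraries reached 1 TPM. Group and culture number were terms, with 7 residual degrees of freedom, Benjamini-Hochberg adjustment and a threshold of 0.05. The culture numbers in the titles pair the libraries. Deviations from the group means correlated at 0.563, 0.289 and 0.472 between the SC and BDNF libraries of cultures 1, 2 and 3, above 0.1 in each pair. The paper gives only a lower bound of reads per sample. The depth of each library is unknown, since TPM sum to the same total, so no counting interval is given.

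Named are the 8 largest rises and 8 largest falls with non-overlapping groups and the same direction in all cultures, leaving out gene models without a given name, up to 4 changed members of each of 27 gene lists, and 11 genes named always. The 3 lists of calcium channels, cortical transcription factors and imprinted genes were written after the values were seen. Further list members named in the text were chosen after their values were seen. The comparison and all lists were chosen with earlier results of these data known. The alternatives were fits without the block, of 6 or 48 libraries, without cultures 10 and 11, without each library or culture, a pseudocount of 0.1, other filters and median ratio scaling. Some genes of the lists are not reported here by name. Promoter windows are from RefSeq GRCm38.p6. Python 3.11.15, numpy 2.4.6, pandas 2.3.3 and matplotlib 3.10.9 were used.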

Additional observations from a re-analysis of the deposited data

Results flagged for a closer look

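The log2 difference between BDNF and SC libraries was larger at DIV3 than on a later day for the genes below, by a limma test of the difference between days in the fit of all 48 libraries (adjusted p under the threshold). Against both later days, the response differed for Nab2 (1.99 and 3.13), Arc (4.27 and 4.99), Egr2 (5.19 and 5.69), Egr1 (4.99 and 5.20), Peg10 (3.66 and 3.92), Fam131a (2.07 and 2.40), Galnt7 (1.67 and 1.56) and Galr1 (2.94 and 2.97), with the first value for DIV3 minus DIV5 and the second for DIV3 minus DIV10. Against DIV5 alone, it differed for Gpr63 (2.09), Fibcd1 (2.25), Clcn5 (1.38), Psph (1.40), Slc7a1 (2.32) and Efr3a (1.00). Against DIV10 alone, it differed for Ch25h (3.27), Trmt9b (2.54), Slc26a7 (2.25), Cpne7 (2.79), Rasl11a (2.15), Egr4 (4.62), 1700012D01Rik (2.18) and Gm31740 (1.70).

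Among them, Nab2 is a corepressor of the Egr factors, Galr1 is a galanin receptor, Slc7a1 a transporter of arginine and Psph an enzyme of serine synthesis. The SC libraries of cultures 1 and 2 at DIV5 carry library numbers 1 and 2 and their BDNF libraries 77 and 78, so at DIV5 the series of library numbers and BDNF cannot be told apart in these cultures. With only cultures 3 and 4 kept at DIV5, the count against DIV5 was 2, and with only cultures 1 and 3 kept at DIV10, the count against DIV10 was 6. The response did not differ between the siRNA labels for any gene at the threshold (limma), with 1440 genes at an unadjusted p under 0.05.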

How the results depend on the processing

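The count of changed genes depended on how the spread was estimated. Against 2053 with the culture number as a replicate block, it was 545 (395 higher, 150 lower) without a replicate block, 172 (147 and 25) in the fit of all 48 libraries, 183 (145 and 38) in the 6 SC siRNA libraries with the replicate block and 104 (85 and 19) in these without it. With 1 library or culture left out it ranged from 150 without culture 1 to 3212 without the SC BDNF library of culture 3. It was 725 without the SC BDNF library of culture 1, 696, 1284 and 988 without the SC libraries of cultures 1, 2 and 3, and 879 without culture 2. Higher genes were 54.7% of the calls, 46.6% without the SC BDNF library of culture 2 and 85.5% in the fit of 48 libraries. The count stayed within 1.5 times under the other alternatives. Of the 90 named genes, 49 kept their side of the threshold without the replicate block and 32 without culture 1. Among them Ntrk2 and Pxn, which did not pass, changed sign, and all others kept their sign in the 18 alternatives. Ntrk2 went to -0.068 without the BDNF library of culture 1, -0.0053 without its SC library and -0.093 without culture 1, with a highest value of 0.2984 when 1 library or culture was left out. Pxn went to 0.083 without the BDNF library of culture 3 and 0.075 without culture 3, with a lowest value of -0.3343.

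The difference between siRNA labels stayed at 0 genes in each of the 20 alternatives run. The count of genes that differed between DIV3 and DIV5 (14) was 23 with median ratio scaling and 1249 (787 larger and 462 smaller at DIV3) with the culture number by day as a replicate block. With 1 library left out it ranged from 5 (SC BDNF culture 1 of DIV3) to 88 (SC BDNF culture 3 of DIV5), with 7, 7 and 34 without the SC libraries of cultures 1, 2 and 3 of DIV3, 52 and 22 without the SC BDNF libraries of cultures 2 and 3 of DIV3, and 59 without SC culture 3 of DIV5. It was 2 with only cultures 3 and 4 at DIV5. The count against DIV10 (16) was 148 (122 and 26) with that replicate block, from 6 to 21 with 1 library left out, and 6 with only cultures 1 and 3 at DIV10. Left out at DIV10, SC cultures 1 and 6 gave 8 and 10 and SC BDNF cultures 1 and 2 gave 10 and 6, and left out at DIV3, SC cultures 1, 2 and 3 gave 7, 9 and 6 and SC BDNF culture 1 gave 7. Leaving out libraries or cultures in these comparisons of days, and paxillin or SC libraries in that of siRNA labels, was chosen after seeing the data. The depth of each library is unknown, so a low TPM such as that of Crhbp without BDNF carries an error that cannot be given.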

Other observations

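Voltage-gated calcium channel genes were listed after the values of Cacna1g and Cacna1i were seen. Of 19 tested, 2 were higher with BDNF (10.5%) and 6 lower (31.6%), against 7.88% and 6.53% of all genes tested. The median log2 difference was -0.06. The T-type genes Cacna1g (-1.95) and Cacna1i (-1.72) fell most, and the remaining T-type gene Cacna1h (-0.41) did not pass. Of the auxiliary subunits, Cacnb3 (-0.75), Cacna2d2 (-0.65), Cacng4 (-0.50) and Cacnb1 (-0.31) fell and Cacng3 (0.86) and Cacnb4 (0.56) rose. The pore genes Cacna1a (0.33), Cacna1b (0.03), Cacna1c (0.04), Cacna1d (0.27) and Cacna1e (-0.31) of the other channel types did not pass. Without the BDNF library of culture 3, 7 members were higher and 5 lower, without the SC library of culture 3 or either library of culture 1 there were 3 lower, and without the block 4 were lower and 0 higher by limma.

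Transcription factors of cortical neurons were also listed after values were seen. Of 26 tested, 9 were lower (34.6%) and 1 was higher (3.85%), against 6.53% and 7.88% of all genes tested. Their median was -0.23. Lmo4 was at 197, 211 and 186 TPM without BDNF and at 91.3, 97.02 and 109 TPM with it, Neurod2 at 763, 1075 and 1198 TPM without BDNF and at 436, 585 and 733 TPM with it and Bhlhe22 at 1364, 1613 and 2187 TPM without BDNF and at 671, 1003 and 1044 TPM with it. Their differences were -0.99, -0.80 and -0.92, and Mycl (-0.98), Cux2 (-0.66), Id2 (-0.57), Lmo3 (-0.56) and Cux1 (-0.29) fell too. Fezf2, a factor of deep layer projection neurons, rose (0.68), and its partner Bcl11b (0.02) and the deep layer factor Tbr1 (-0.22) did not pass. In the fit without the block 2 were lower, and without culture 1 none was by the limma test. Without the SC library of culture 3 there were 5.

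Imprinted genes were listed after the value of Peg10 was seen. Of 27 tested, 8 were higher (29.6%) and 2 lower (7.41%), against 7.88% and 6.53% of all genes tested. Their median was 0.15. The higher count was 2 without the block, 3 without culture 1 or either of its libraries, and 4 without the SC library of culture 2 or 3. Dlk1, a Notch ligand homologue, was at 1.67, 0.648 and 0.657 TPM without BDNF and at 5.37, 4.98 and 6.68 TPM with it, a difference of 1.77. Zdbf2 (1.48), Nnat (0.98) and Plagl1 (0.86) rose as well. Cdkn1c, an inhibitor of cyclin-dependent kinases, was at 138, 163 and 149.97 TPM without BDNF and at 57.8, 76.4 and 74.4 TPM with it and fell (-1.11). Sgce (0.14), the neighbour of Peg10 in the same imprinted cluster, did not pass.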
